A study of Homo sapiens with 12 samples.

Results

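The 7 genes FOS, FOSB, FOSL1, FOSL2, JUN, JUNB and JUND encode the Fos and Jun subunits of the transcription factor AP-1 (activator protein 1). They were matched by symbol among the 62703 Ensembl gene identifiers of the deposited table, and all 7 were also among the 14639 genes that entered the tests. The family was chosen on its TPM values in these same 12 libraries. The values of the 7 genes are therefore a description, counts of those past a threshold included, and p-values are given only for other genes of the pathway. The libraries come from HK2 cells, an immortalised human line derived from the proximal tubule of the kidney, with 3 libraries in each of 4 groups. NG cells were kept in 5.5 mM glucose and carried a control vector, and HG cells were exposed to 50 mM glucose. The si-FGF9 cells received an siRNA against FGF9 (fibroblast growth factor 9) in 5.5 mM glucose, and the HG+OE-FGF9 cells received a lentiviral vector that overexpresses FGF9 in 50 mM glucose. In another place the text of the study gives NG a mannitol medium, and it names the vector adenoviral, so that whether NG controls for osmolarity is unclear in every comparison of HG with NG. No non-targeting siRNA is described for these cells. An effect of the siRNA transfection and an effect on FGF9 therefore cannot be told apart in si-FGF9 versus NG. A control vector is named for NG only, and none is described for HG. In HG+OE-FGF9 versus HG an effect of the vector thus cannot be told apart from an effect of FGF9. HG and NG may differ by vector as well as by glucose.

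AP-1 is a dimer of basic leucine zipper (bZIP) proteins. Fos proteins bind DNA mainly when paired with a Jun protein, or with some other bZIP proteins, whereas Jun proteins also pair among themselves. The dimers of Fos and Jun proteins bind the TPA response element, TGANTCA, or the cAMP response element, TGACGTCA. FOS and FOSB are immediate early genes, transcribed within minutes of a stimulus by serum response factor, ETS factors and CREB under the control of MAP kinases, and their mRNA is short-lived. In the renal tubule AP-1 is known for its part in the response to growth factors, stress and injury.

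The promoters of 6 of the 7 genes were found in the RefSeq table for GRCh38.p14, and the 250 bases before the annotated start were searched on both strands. The 4 printed here are those of FOS and FOSB, whose levels differed most between groups, of JUNB, which was lower outside NG as they were, and of JUND, which was not. Capitals mark TGACG or CGTCA, the half-site of the cAMP response element, the whole element TGACGTCA where it is present, and TATAAA on the strand of the gene. FOS lies at chr14:75278578-75278827 on the plus strand, FOSB at chr19:45467746-45467995 on the plus strand, JUNB at chr19:12791236-12791485 on the plus strand and JUND at chr19:18281623-18281872 on the minus strand.
FOS: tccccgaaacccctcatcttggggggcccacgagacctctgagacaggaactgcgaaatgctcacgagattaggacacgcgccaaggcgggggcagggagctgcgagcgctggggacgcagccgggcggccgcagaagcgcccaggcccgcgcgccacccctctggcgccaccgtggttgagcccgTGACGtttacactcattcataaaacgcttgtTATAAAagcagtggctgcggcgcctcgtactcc
FOSB: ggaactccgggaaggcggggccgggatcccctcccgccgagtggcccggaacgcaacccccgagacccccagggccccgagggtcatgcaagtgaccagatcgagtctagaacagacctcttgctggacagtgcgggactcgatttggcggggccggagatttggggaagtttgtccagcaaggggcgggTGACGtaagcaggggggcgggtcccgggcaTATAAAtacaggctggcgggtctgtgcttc
JUNB: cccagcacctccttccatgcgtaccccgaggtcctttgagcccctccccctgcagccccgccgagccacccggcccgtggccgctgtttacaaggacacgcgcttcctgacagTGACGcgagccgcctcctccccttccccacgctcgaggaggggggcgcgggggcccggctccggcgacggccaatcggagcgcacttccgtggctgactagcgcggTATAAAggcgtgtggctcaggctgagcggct
JUND: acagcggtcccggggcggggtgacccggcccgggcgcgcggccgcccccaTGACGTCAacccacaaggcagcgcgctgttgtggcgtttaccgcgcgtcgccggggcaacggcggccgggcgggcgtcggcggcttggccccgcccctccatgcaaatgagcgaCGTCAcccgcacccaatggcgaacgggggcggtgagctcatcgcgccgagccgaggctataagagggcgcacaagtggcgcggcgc

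In FOS the half-site begins 64 bases and TATAAA 33 bases before the start, and in FOSB they begin 60 and 30 bases before it. JUNB holds the half-site further upstream, 137 bases before the start, and TATAAA 31 bases before it. JUND holds no TATAAA in this window, but the full palindrome TGACGTCA 200 bases before the start, a further half-site 86 bases before it and 5 matches to GGGCGG, the core bound by SP1. The half-site was present in all 6 promoters searched, against 21.2% of 34788 promoters of the same length, which count each distinct sequence a single time. TATAAA was present in 3 of the 6 against 6.84% of all, counted on the forward strand. Those were FOS, FOSB and JUNB, while JUN and FOSL2 held none, like JUND. Near the end of its window JUND reads TATAAG, which differs from TATAAA only in the last letter and was not counted. GGGCGG was present in all of the 6 but JUNB, against 42.6% of all. JUN, on the minus strand of chromosome 1, holds a match to TGACNTCA at a place where JUN dimers are known to act on their own gene, shown here in 30 bases with the match in capitals.
JUN, chr1:58784096-58784125: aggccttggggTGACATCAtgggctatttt

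TGACNTCA was found in 6.84% of all promoters, and its matches overlap those of the half-site where N is G. TGANTCA was found in none of the 6 promoters and in 6.59% of all. The core of the serum response element (CArG box) was found in none of the 6 either, and in 1.17% of all. No match says only that these letters are not in this window, and a match is not a bound site.

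The values are TPM (transcript numbers corrected for length), brought to the same sum in each library, so that levels of different genes can be compared but the depth is unknown and no counting error can be given. The number of genes at 1 TPM or more ran from 11549 to 13949 across the libraries. The median difference in log2(TPM + 1) over all genes tested was -0.39 in HG versus NG, -0.79 in si-FGF9 versus NG and -0.13 in HG+OE-FGF9 versus HG, and changes are to be read against it. With the alternative median-of-ratios scaling, 1063 genes were higher and 1240 lower in HG versus NG in place of 242 and 3328, and 2774 higher and 2613 lower in si-FGF9 versus NG in place of 785 and 6181. In HG+OE-FGF9 versus HG the split went from 430 and 391 to 505 and 281. Differences also followed the GC content of the transcripts, with medians of -1.22 and 0.30 in the 10% of genes with the lowest and the highest GC content in HG versus NG and of -1.79 and 0.20 in si-FGF9 versus NG. HG replicate 3 stood apart from the other HG libraries, with median absolute log2 differences of 0.393 and 0.554 to them against 0.287 between them. HG+OE-FGF9 replicates 1 and 2 differed by 0.0848 and replicate 3 from them by 0.385 and 0.387. Whether replicates came from separate cultures is not stated, so that p-values measure the spread between these libraries, which may be technical. FGF9 was listed at 0 in all 9 NG, HG and si-FGF9 libraries and at 3.34, 4.03 and 3.82 TPM in HG+OE-FGF9. Its knockdown could therefore not be checked in these libraries. The paper measured FGF9 by RT-qPCR in the same groups of HK2 cells. It gave a lower mean in si-FGF9 than in NG, a difference that did not reach its significance level. Of the proximal tubule markers, LRP2, CUBN, SLC34A1 and ANPEP were at 0.26 TPM or less in every library, while GGT1 was at 71.7 to 195 TPM. Of the markers of the renal epithelial lineage, PAX8 was at 19.7 to 79.1 TPM and CDH6 at 20.7 to 214 TPM. The 4 endothelial markers each stayed at 0.1 TPM or below, and of the leukocyte markers CD68 was at 108 to 159 TPM while PTPRC and CD3E were near 0. Of the 7 fibroblast markers, 3 had a mean of at least 1 TPM in NG and 2 in each other group, PDGFRA and COL3A1 were at or near 0, and their summed level, mostly LUM, was 62.5 to 89.2 TPM in NG and 11.6 to 41.0 elsewhere. The part of these markers in the results below was not tested.

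In NG cells FOS was the most abundant AP-1 subunit, and outside NG it was nearly absent. FOS, the founding member of the family, was at 276, 252 and 251 TPM in NG, at 1.10, 0.53 and 6.89 TPM in HG, at 4.58, 6.35 and 2.92 TPM in si-FGF9, and at 7.17, 7.17 and 4.55 TPM in HG+OE-FGF9. Every NG library lay far above every other library, and the other 3 groups overlapped with each other in order of their means. The mean of the NG libraries was 259.6 ± 14.1 TPM (SD, n = 3). It was 6.30 ± 1.51 TPM with HG+OE-FGF9, 4.62 ± 1.72 TPM with si-FGF9 and 2.84 ± 3.52 TPM with HG alone. In log2(TPM + 1), where the change of low values is understated, HG minus NG was -6.47 (SE 0.48) and si-FGF9 minus NG was -5.58. HG+OE-FGF9 minus HG was 1.29 and depended on which HG libraries were kept, with 0.82 without HG replicate 2 and 2.00 without HG replicate 3. In bulk RNA, fewer cells that express a gene and less of its RNA per cell cannot be told apart.

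FOSB, which like FOS carries a transactivation domain, was at 79.0, 52.9 and 55.8 TPM in NG. It was at 0.50, 0.74 and 1.11 TPM in HG, at 0.67, 0.32 and 0.63 TPM in si-FGF9, and at 3.92, 4.03 and 2.70 TPM in HG+OE-FGF9. The HG+OE-FGF9 libraries lay above all HG and si-FGF9 libraries and below all NG libraries. HG minus NG was -5.15 (SE 0.22) in log2(TPM + 1), si-FGF9 minus NG was -5.35, and HG+OE-FGF9 minus HG was 1.35 (SE 0.22). The last value lay between 1.23 and 1.49 when each library was left out in turn. FOSB overlaps ERCC1, a DNA repair gene on the opposite strand with up to 63.4 TPM, and the strand setting of the authors' counting is not stated, so that reads from the shared part cannot be told apart.

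**Figure D1:**
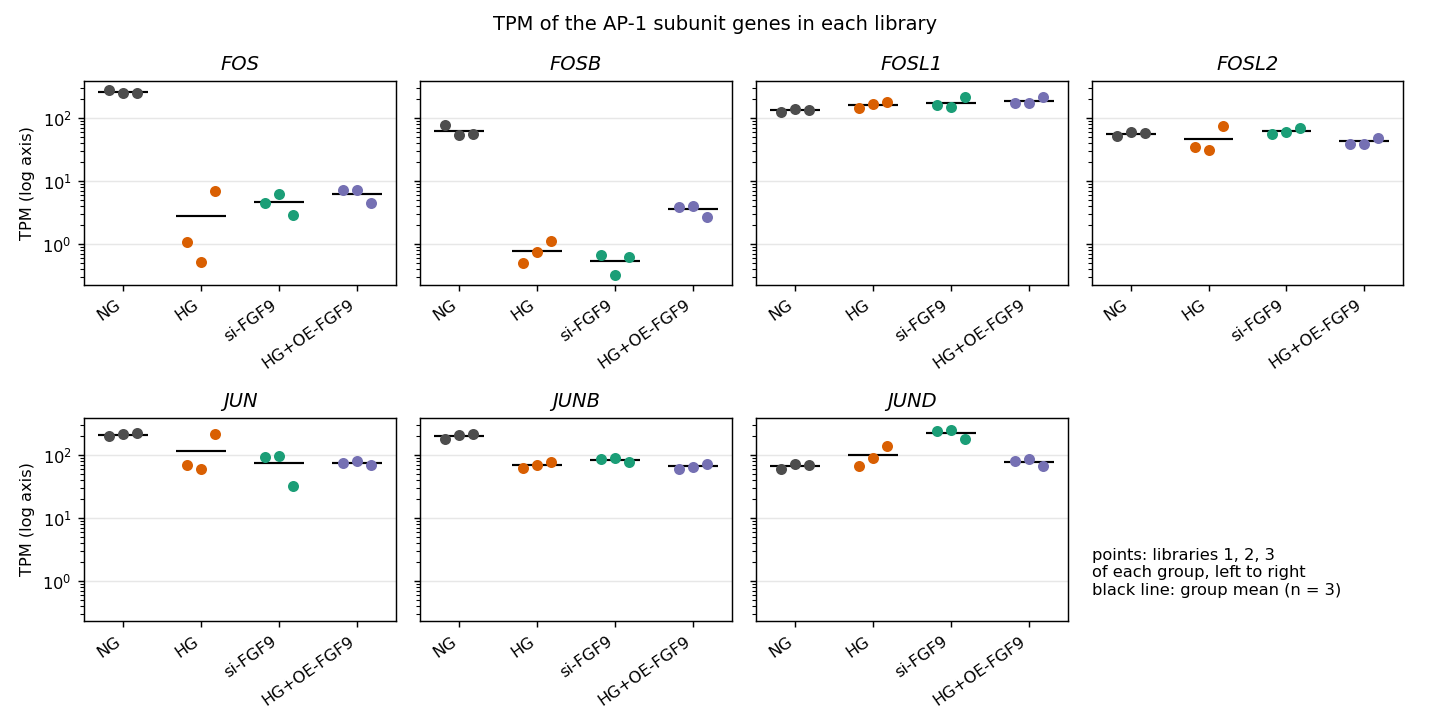
TPM of each AP-1 subunit gene (vertical log axis) in the 3 libraries of each of the 4 groups, with points for libraries and black lines for group means. FOS stands at 251 to 276 TPM in NG and at 0.53 to 7.17 TPM elsewhere, FOSL1 stays between 126 and 218 TPM, and JUND is highest in si-FGF9 at 178 to 243 TPM.

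The Fos-related antigens FOSL1 and FOSL2, which lack the strong transactivation domain of FOS, did not share this pattern. FOSL1 (FRA-1) was at 126, 139 and 136 TPM in NG, at 144, 164 and 180.3 TPM in HG, at 159.9, 148 and 218 TPM in si-FGF9, and at 175, 173 and 216 TPM in HG+OE-FGF9. All 9 libraries of the other groups lay above the NG libraries, by a small margin. The differences from NG in log2(TPM + 1) were 0.27 (SE 0.16) in HG and 0.37 in si-FGF9, and were positive also with median-of-ratios scaling, at 0.79 and 1.39, and with correction for GC content, at 0.13 and 0.40.

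FOSL2 (FRA-2) was at 51.3, 60.8 and 58.0 TPM in NG and at 34.3, 31.2 and 74.6 TPM in HG. Its HG libraries lay on both sides of NG, with replicate 3 above. In si-FGF9 it was at 55.7, 59.9 and 68.9 TPM, overlapping with NG, and in HG+OE-FGF9 at 39.5, 39.1 and 48.9 TPM, below each NG library. HG minus NG was -0.38 (SE 0.27) in log2(TPM + 1) and 0.12 with median-of-ratios scaling, so that no direction can be given. A sense intronic transcript inside FOSL2, ENSG00000270640, reached 35.6 TPM, and reads that both could share cannot be told apart.

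Among the Jun genes, JUN and JUNB were at similar levels in NG and at lower ones in most other libraries. JUN, the strongest activator of the Jun proteins, was at 197, 210.0 and 219 TPM in NG and at 68.8, 59.1 and 211 TPM in HG. HG replicate 3 thus lay inside the NG range while HG replicates 1 and 2 lay far below it. JUN was at 92.5, 94.3 and 31.9 TPM in si-FGF9 and at 75.0, 80.7 and 68.5 TPM in HG+OE-FGF9, all below NG. HG minus NG was -1.12 (SE 0.46) in log2(TPM + 1) and -1.69 without HG replicate 3, and si-FGF9 minus NG was -1.66 and -1.15 without si-FGF9 replicate 3. With median-of-ratios scaling these differences were -0.61 and -0.63. HG+OE-FGF9 minus HG was -0.35, and 0.22 without HG replicate 3, so that it has no stable sign.

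JUNB, a weaker activator than JUN that can also repress, was at 178, 207 and 211 TPM in NG, at 62.8, 68.2 and 75.8 TPM in HG, at 84.5, 89.6 and 75.9 TPM in si-FGF9, and at 60.4, 64.9 and 71.7 TPM in HG+OE-FGF9. No library outside NG reached the NG range, and the replicates were close in each group. The difference in log2(TPM + 1) from NG was -1.51 (SE 0.13) in HG, -1.001 with median-of-ratios scaling and -1.85 with correction for GC content. In si-FGF9 it was -1.24, and -0.22 with median-of-ratios scaling. HG+OE-FGF9 minus HG was -0.07 and turned to 0.07 with median-of-ratios scaling. JUNB overlaps HOOK2 on the opposite strand, which reached 24.0 TPM.

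JUND, a Jun protein made in most resting cells and known to slow proliferation, was highest in si-FGF9. It was at 59.6, 71.3 and 68.4 TPM in NG, at 66.8, 89.9 and 138.5 TPM in HG, at 235, 243 and 178 TPM in si-FGF9, and at 81.1, 86.0 and 66.8 TPM in HG+OE-FGF9. The si-FGF9 libraries lay above all others, and HG and HG+OE-FGF9 overlapped with NG. In log2(TPM + 1), si-FGF9 minus NG was 1.69, rising to 2.72 with median-of-ratios scaling and falling to 1.06 with correction for GC content. HG minus NG was 0.50 (SE 0.23), 1.01 with median-of-ratios scaling and -0.01 with correction for GC content, so that its direction depends on the processing. JUND has the highest GC content of the 7 transcripts, 69.7%, above 99.7% of the genes with a value.

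**Figure D2:**
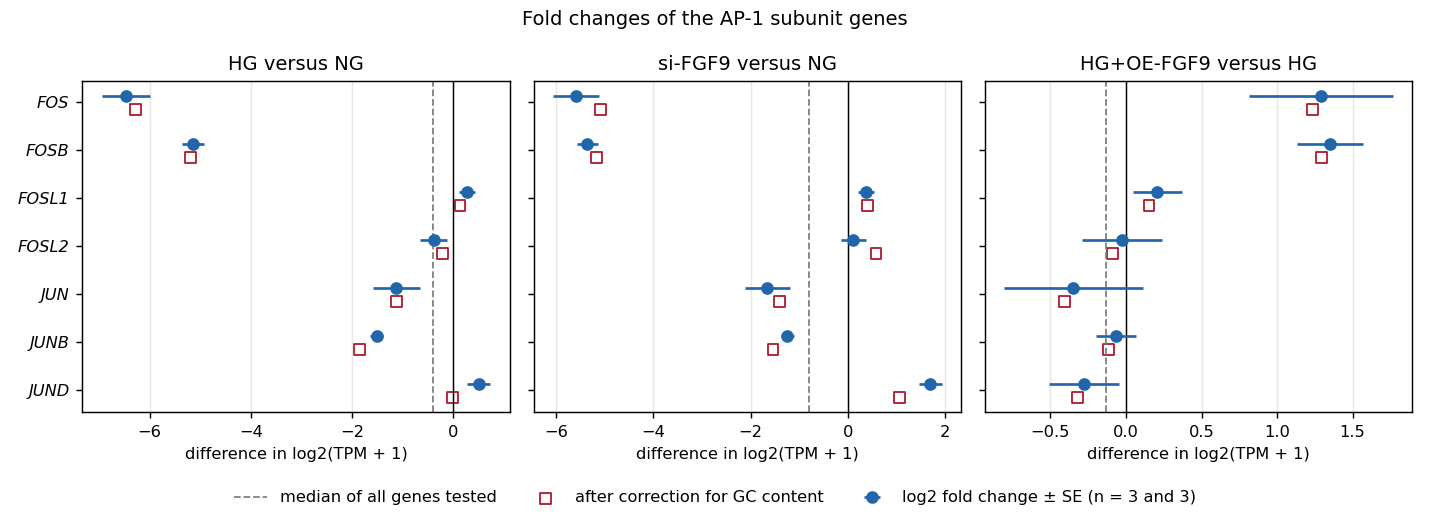
Difference in log2(TPM + 1) of each subunit gene (blue, with SE, n = 3 and 3) in the 3 comparisons, the same after correction for GC content (red squares) and the median of all genes tested (dashed line), on horizontal axes that differ between panels. FOS and FOSB lie at -6.47 and -5.15 in HG versus NG, and JUND lies at 1.69 in si-FGF9 versus NG and at 1.06 after correction.

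A gene counted as past the thresholds when its absolute log2 fold change was 1 or more with an unadjusted limma p below 0.01. Percentages of all genes, here and below, are those of the fit without correction or alternative scaling. After correction for GC content, 536 of 14191 genes were higher and 434 lower in HG versus NG. In si-FGF9 versus NG these were 1751 and 1701. With median-of-ratios scaling they were 1063 and 1240 of 14639 genes in HG versus NG, and 2774 and 2613 in si-FGF9 versus NG. In HG versus NG, 0 of the 7 subunits were higher, beside 1.65% of all genes tested, and 3 were lower, FOS, FOSB and JUNB, beside 22.7%. The HG and NG libraries did not overlap for 4 of the 7, these 3 and FOSL1, beside 57.2% of all genes. With HG replicate 3 left out JUN was past the thresholds as well, which made 4 lower, and with median-of-ratios scaling JUND was past them as higher. In si-FGF9 versus NG, which uses the same NG libraries, JUND was past the thresholds as higher, beside 5.36% of all genes, and 4 subunits as lower, FOS, FOSB, JUN and JUNB, beside 42.2%. Here 6 of the 7 did not overlap, all but FOSL2, beside 76.4% of all genes. With median-of-ratios scaling 3 were higher, FOSL1, FOSL2 and JUND, and 2 lower, FOS and FOSB, and JUN was no longer past the thresholds with correction for GC content or without NG replicate 2, NG replicate 3 or si-FGF9 replicate 3. In HG+OE-FGF9 versus HG, FOSB alone was higher, beside 2.94%, 0 were lower, beside 2.67%, and FOSB alone did not overlap, beside 22.1%. Without HG replicate 3, FOS was past the thresholds as higher too. These counts describe genes chosen on the same values, and nothing is read from them.

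The make-up of the family differed between groups. The summed level of the 7 genes was 967 to 1000.02 TPM in NG, 378 to 688 TPM in HG, 577 to 641 TPM in si-FGF9 and 442 to 479 TPM in HG+OE-FGF9. No library outside NG reached the NG range, and HG replicate 3 was the highest of the rest. FOS gave 26.3% of the sum in NG and 0.473% in HG as a mean of 3 libraries. FOSL1 gave 13.6% in NG and 40.9% in HG+OE-FGF9, and JUND 6.73% in NG and 35.3% in si-FGF9. The subunit with the highest TPM was FOS in all NG libraries, FOSL1 in HG replicates 1 and 2 and in all HG+OE-FGF9 libraries, JUN in HG replicate 3, JUND in si-FGF9 replicates 1 and 2, and FOSL1 in si-FGF9 replicate 3. In NG the order by mean was FOS, JUN, JUNB, FOSL1, JUND, FOSB and FOSL2, where JUN and JUNB overlapped in range, as did JUND, FOSB and FOSL2. In HG+OE-FGF9 the order was FOSL1, JUND, JUN, JUNB, FOSL2, FOS and FOSB, where JUND overlapped with JUN and JUN with JUNB.

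**Figure D3:**
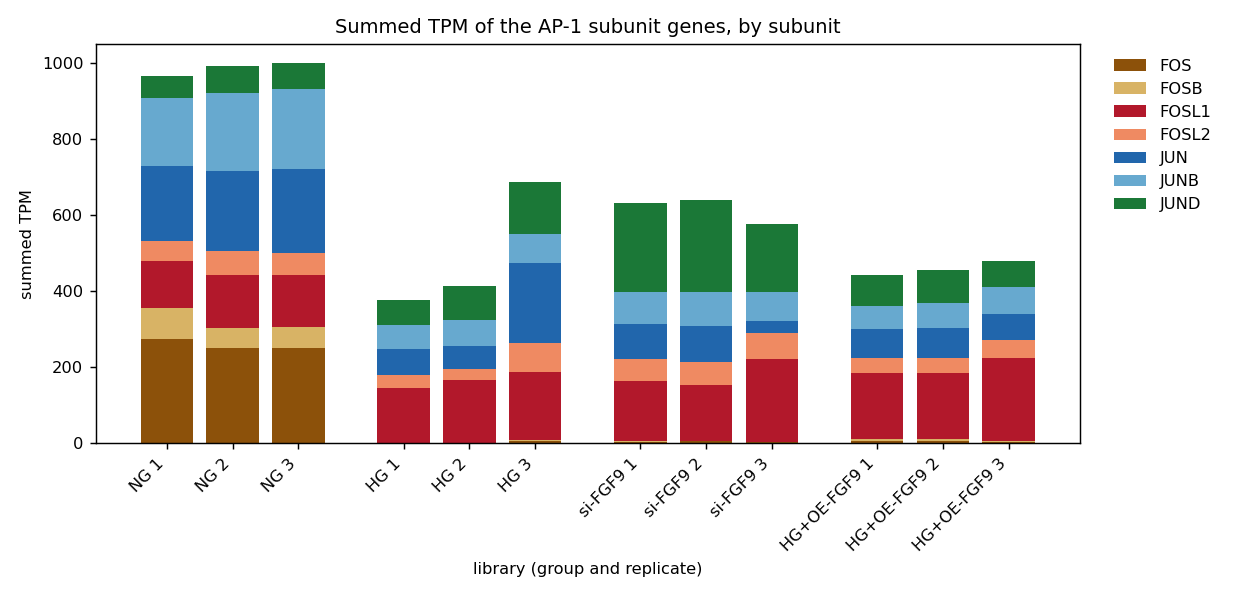
Summed TPM of the 7 AP-1 subunit genes in each library (bars from 0), split by subunit. NG bars reach 967 to 1000.02 TPM with FOS as their largest block, and in the other 9 bars the FOS and FOSB blocks are barely visible.

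Ratios of subunits within a library do not depend on how libraries are scaled. The ratio of FOSL1 to FOS was 0.457 to 0.554 in NG, and 26.2 to 310 in HG, 24.2 to 47.5 in HG+OE-FGF9 and 23.2 to 74.8 in si-FGF9. The ratio of JUND to JUNB was 0.323 to 0.345 in NG, and 1.06 to 1.83 in HG, 0.931 to 1.34 in HG+OE-FGF9 and 2.34 to 2.78 in si-FGF9. For both ratios each NG library lay below all libraries of the other groups. The ratio of JUND to JUN, 0.303 to 0.340 in NG and 2.54 to 5.59 in si-FGF9, followed the same order, with 0.657 to 1.52 in HG and 0.975 to 1.08 in HG+OE-FGF9. The GC contents behind these ratios differ, at 60.0% for FOSL1 and 52.6% for FOS, and at 69.7% for JUND, 64.9% for JUNB and 56.7% for JUN.

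**Figure D4:**
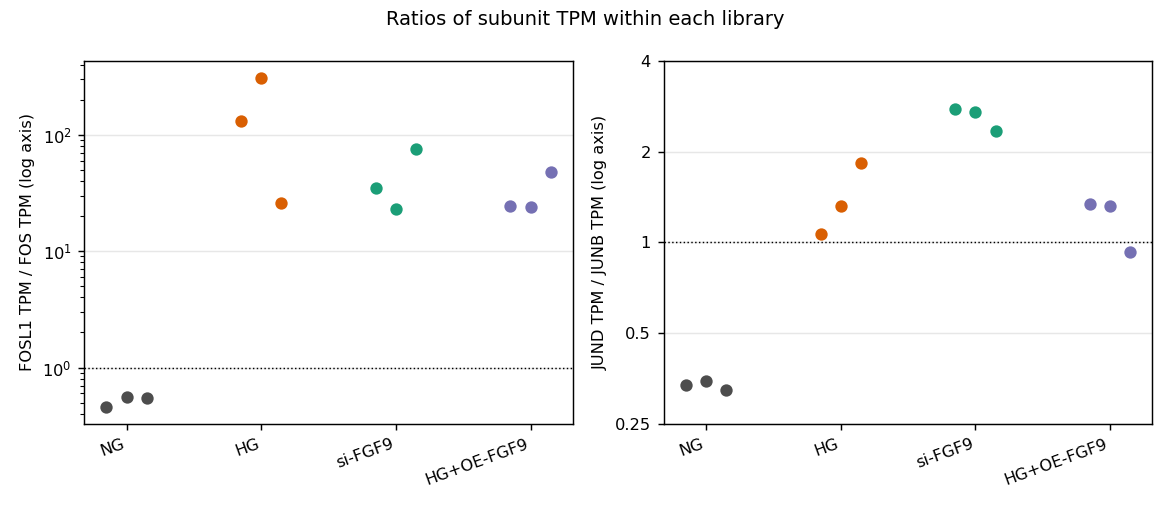
Ratio of FOSL1 to FOS TPM (left) and of JUND to JUNB TPM (right) in each library, on log axes, with a dotted line at 1. In NG both ratios lie below 1 in each library, FOSL1 over FOS lies at 23.2 or above in the other 9 libraries, and JUND over JUNB is highest in si-FGF9 at 2.34 to 2.78.

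The mRNA of immediate early genes often carries ATTTA elements, through which proteins of the ZFP36 family speed its decay. The longest GENCODE transcript of FOS holds 5 of them, that of FOSB 3, FOSL1 1, FOSL2 9, JUN 3, JUNB 2 and JUND 2. Per kilobase FOS has the most, 2.32, against a median of 1.04 over the genes with a value. FOSL2 has 1.34 per kilobase, and ATTTA occurs in 78.8% of the genes with a value. The elements were counted over the whole transcript, not in the untranslated part alone. Whether they bear on the levels of the subunits was not tested.

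Dimer partners of the Jun and Fos proteins were lower in part, and ATF3 had the same order of group means as FOSB. ATF3, a stress-induced bZIP factor that pairs with JUN, was at 85.5, 64.5 and 66.0 TPM in NG, at 13.3, 8.29 and 21.6 TPM in HG, at 6.04, 7.91 and 5.45 TPM in si-FGF9, and at 61.3, 63.5 and 41.6 TPM in HG+OE-FGF9. In HG versus NG it fell by 2.33 on the log2 scale (SE 0.29, limma, Benjamini-Hochberg adjusted p = 0.000588) and in si-FGF9 versus NG it fell by 3.29 (adjusted p = 6.98e-06). In HG+OE-FGF9 versus HG it rose by 1.94 (adjusted p = 0.00246), with all 3 libraries above all HG libraries. Of the 15 partners listed, 11 were tested. In HG versus NG 0 rose and 2 fell, ATF3 and ATF2, with a list median of -0.68 against -0.39 for all genes, and 22.7% of all genes were called lower. After correction for GC content ATF2 did not pass and BATF3, a bZIP partner of Jun proteins, was higher by 1.32, and with median-of-ratios scaling 1 partner was higher. In si-FGF9 versus NG 0 rose and 7 fell, beside 42.2% of all genes called lower, with a median of -1.16 against -0.79. ATF2 fell by 2.73 (adjusted p = 9.36e-05), the small Maf gene MAFG by 1.43 and ATF7 by 1.16. After correction for GC content 5 were lower and 2 higher, BATF3 and CREB5, beside 1701 and 1751 of 14191 genes. ATF7 at -0.41 did not pass. With median-of-ratios scaling 2 of the list were lower and 1 higher, beside 2613 and 2774 of 14639 genes. Between HG and HG+OE-FGF9, ATF3 rose and MAF fell by 1.07, beside 2.94% of all genes called higher and 2.67% lower. The list median was 0.16 against -0.13.

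Of the kinases and factors listed as inducers of AP-1 genes, 9 fell in HG and 14 in si-FGF9. The calls in HG were lost after correction for GC content. The list also holds ELK3, an ETS factor that can repress as well. All 23 genes listed were tested, and 0 rose in HG versus NG, with a median of -0.78 against -0.39 for all genes, of which 22.7% were called lower. The largest differences were those of ELK4, an ETS partner of serum response factor (-1.93, SE 0.39, adjusted p = 0.00260), MAPK8, the kinase JNK1 that phosphorylates JUN (-1.87), RPS6KA3, the kinase RSK2 (-1.61), and ELK3 (-1.49). None of the 9 passed the thresholds after that correction, which left 0 calls in the list. In si-FGF9 versus NG 1 rose, with a median of -1.52 against -0.79. Of all genes, 5.36% were called higher and 42.2% lower. RPS6KA3 (-2.83), ELK4 (-2.72), MAPK8 (-2.70) and ELK3 (-2.41) fell furthest among genes with a mean of at least 5 TPM. After correction 9 of the list passed as lower, beside 1701 of 14191 genes. With median-of-ratios scaling 7 did so, beside 2613 of 14639 genes. The gene that rose was MAP2K2, the kinase MEK2 upstream of ERK, by 1.80 (adjusted p = 4.63e-06). Serum response factor itself, SRF, stood at -0.89 in si-FGF9 versus NG and did not pass. Between HG+OE-FGF9 and HG, 0 genes passed in either direction, beside 2.94% of all genes called higher and 2.67% lower. The list median was -0.32.

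Most of the tested genes that end AP-1 activity fell in HG and in si-FGF9. Of 20 listed, 19 were tested, and 13 fell and 0 rose in HG versus NG, beside 22.7% of all genes called lower, with a median of -1.26 against -0.39. ZFP36, which binds ATTTA elements and destabilises mRNA, was at 65.7 ± 4.63 TPM (SD, n = 3) in NG against 12.4 ± 12.5 TPM in HG. It fell by 2.72 (adjusted p = 0.00195). ZFP36L1, a relative of it, fell by 1.89 and DUSP6, a phosphatase of ERK, by 2.32. ITCH, a ubiquitin ligase of JUN, fell by 1.76, but not after correction for GC content. With that correction 7 genes of the list remained past the thresholds as lower, beside 434 of 14191 genes. In si-FGF9 versus NG 14 fell and 0 rose, beside 42.2% of all genes called lower, with a median of -1.45 against -0.79. Among them were DUSP6 (-2.87), ZFP36 (-2.49), ITCH (-2.34) and DUSP1 (-1.89), a phosphatase of MAP kinases. After correction 5 passed as lower and 2 as higher, beside 1701 and 1751 of 14191 genes. With median-of-ratios scaling 5 and 1 did so, beside 2613 and 2774 of 14639 genes. For HG+OE-FGF9 against HG, 0 genes passed, beside 2.94% of all genes called higher and 2.67% lower. The list median was -0.15 against -0.13 for all genes.

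Genes with known AP-1 sites near them did not move as a block. Of 22 listed, 19 were tested, and in HG versus NG 6 fell and 0 rose, beside 22.7% of all genes called lower, with a median of -0.51 against -0.39. These included the cytokine genes CXCL8 (-1.68, adjusted p = 0.00157) and IL6 (-1.20, adjusted p = 0.0170), the growth factor gene VEGFA (-1.55) and SPP1, which encodes osteopontin (-1.51), but after correction for GC content VEGFA alone of these passed. In si-FGF9 versus NG 8 fell and 1 rose, beside 42.2% of all genes called lower and 5.36% higher. The list median was -0.68 against -0.79. After correction for GC content 6 were lower and 2 higher with a median of 0.16, beside 1701 and 1751 of 14191 genes. With median-of-ratios scaling 3 and 5 were so, beside 2613 and 2774 of 14639 genes. IL6 went from 151 ± 14.4 TPM in NG to 10.9 ± 2.36 in si-FGF9 and fell by 3.69 (adjusted p = 9.42e-06), and CXCL8 fell by 3.37. TIMP1, an inhibitor of matrix metalloproteinases, rose by 1.72 (adjusted p = 2.22e-06), from 579 ± 13.8 to 1909 ± 74.1 TPM. With HG+OE-FGF9, 2 fell and 0 rose relative to HG, beside 2.67% of all genes called lower and 2.94% higher. SPP1 fell by 1.36 (limma, adjusted p = 0.0262) and IL6 by 1.34 (adjusted p = 0.0392), where the IL6 libraries of the groups overlapped.

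**Figure D5:**
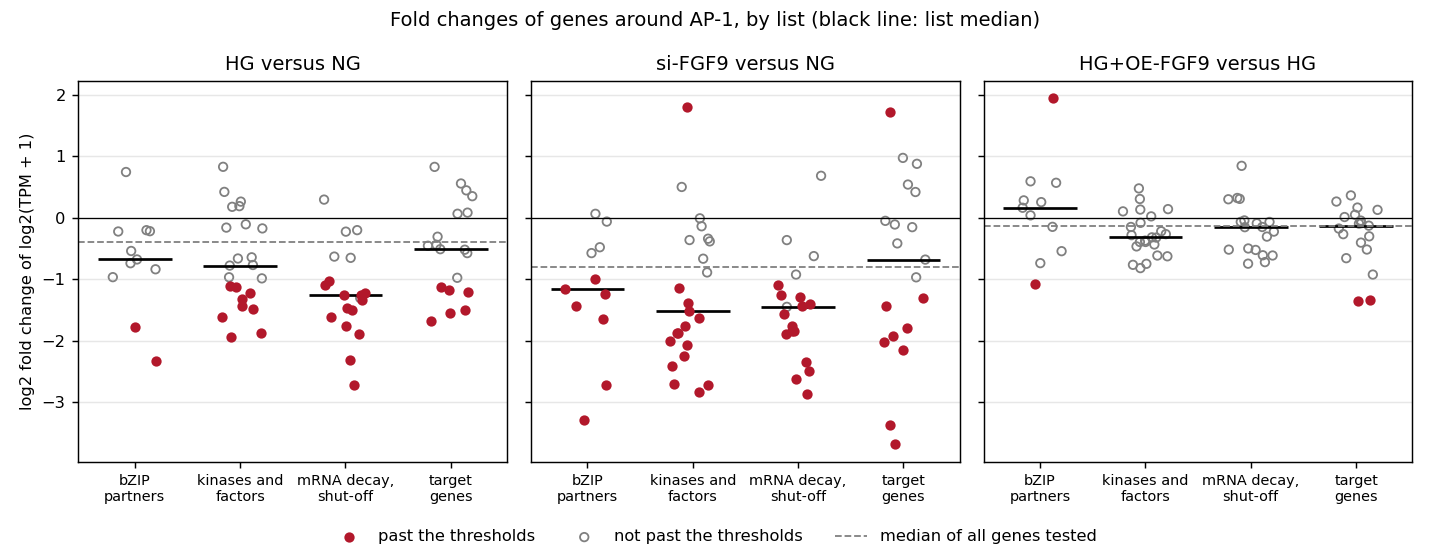
Log2 fold change of each tested gene of the 4 lists (partners, inducers, decay and shut-off factors, targets) in the 3 comparisons, filled where past the thresholds, with list medians in black and the median of all genes dashed. ATF3 stands alone at 1.94 in HG+OE-FGF9 versus HG, and MAP2K2 and TIMP1 stand above the rest of their lists in si-FGF9 versus NG.

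The genes most like each subunit were sought among 7932 protein-coding genes by the root mean square difference of log2(TPM + 1), each centred on its own mean over the 12 libraries. For FOS the nearest was EGR1, another immediate early gene, at a difference of 0.87, with a mean of 132 TPM in NG, of 0.613 and 1.18 TPM in HG and HG+OE-FGF9 and of 0.327 TPM in si-FGF9. CCNL1 followed at 1.14 and HLTF at 1.26. Nearest to JUN were ID2 (0.25), RGS2 (0.27) and RASSF8 (0.27), and nearest to FOSL1 were PMM1 (0.11), ZNF385A (0.12) and PHLDA3 (0.13). For JUND they were CDKN1C, which encodes a cell cycle inhibitor (0.20), TNFRSF18 (0.22) and the linker histone gene H1-2 (0.22), the first with a mean of 50.1 TPM in NG and 145 in si-FGF9. Within the family the closest pairs by the same measure were FOSL1 and FOSL2 (0.42) and JUN and JUNB (0.57), FOS and FOSB differed by 0.81, and FOS and JUND were furthest apart at 2.95.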

How the data were processed

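RNA of HK2 cells was sequenced in 12 libraries, grouped by the sample labels. The deposited values are TPM given by the authors to 2 decimals, a unit read from the values, which sum to the same total in each library. The submitters' processing notes name Bowtie 0.12.2 and the mouse build mm8 without a role, although the identifiers are human. The quantification tool and the annotation are not given in the sources used here. TPM keep no depth, so precision was judged from the 3 libraries per group.

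Differences were tested on the log2(TPM + 1) scale, with a pseudocount of 1, using limma 3.58.1 (R 4.3.3) with a variance trend. A single model of the 4 groups held all 12 libraries, and genes under 1 TPM in all but 2 or fewer libraries were left out. Calls needed an absolute log2 fold change no smaller than 1 with an unadjusted p below 0.01, and Benjamini-Hochberg adjusted p were computed over all genes tested. The fit was tested on simulated data. The members, the 4 gene lists and the alternatives were chosen with earlier results of these data known. Named list genes are the 4 or fewer called in each list and comparison with the largest fold change and a mean of at least 5 TPM, the exceptions in direction, and the 3 most alike of FOS, FOSL1, JUN and JUND. MAF, SRF, BATF3 and CREB5 fall outside this rule and were named after their values were seen, and some genes of the lists are not reported here.

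GC content came from the longest transcript in GENCODE release 29 on GRCh38, with values for 96.9% of the genes tested, and was corrected with a natural spline with 5 degrees of freedom per library. Positions are those of GRCh38, where FOS lies on chromosome 14 from 75278774 to 75282230, FOSB on chromosome 19 from 45467995 to 45475179, FOSL1 on chromosome 11 from 65892049 to 65900573, FOSL2 on chromosome 2 from 28392448 to 28417312, JUN on chromosome 1 from 58780788 to 58784327, JUNB on chromosome 19 from 12791496 to 12793315 and JUND on chromosome 19 from 18279760 to 18281622. The build behind the deposited values may differ.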

Additional observations from a re-analysis of the deposited data

How the results depend on the processing

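Under the alternatives 23 fold changes of the subunits moved by more than the spread between replicates, all with median-of-ratios scaling, correction for GC content or a pseudocount of 0.1, and no called value changed sign. With median-of-ratios scaling the genes past the thresholds in HG versus NG went from 3570 to 2303, with 5 inducers in place of 9, 5 decay factors in place of 13 and 3 targets in place of 6, and in si-FGF9 versus NG to 3 partners in place of 7, 9 inducers in place of 15 and 6 decay factors in place of 14. With correction for GC content, HG versus NG had 970 genes (536 higher and 434 lower), 0 inducers, 7 decay factors and 1 target, and si-FGF9 versus NG had 3452 genes in place of 6966 (1751 higher and 1701 lower) and 7 decay factors. In HG+OE-FGF9 versus HG, targets went from 2 to 0 with only the 6 libraries of the comparison, and inducers from 0 to 1 with a pseudocount of 0.1. Without each library in turn there were 2238 to 4746 genes in HG versus NG, 2 to 5 partners, 5 to 12 inducers, 8 to 14 decay factors and 4 to 6 targets. The lowest count of genes was without HG replicate 2 and the highest number of partners without HG replicate 3. In si-FGF9 versus NG it gave 6690 to 7039 genes, 6 to 7 partners, 15 inducers, 14 to 15 decay factors and 9 to 11 targets. In HG+OE-FGF9 versus HG it gave 549 to 1617 genes in place of 821, the highest when HG+OE-FGF9 replicate 3 was left out and 1360 when HG replicate 2 was, and 1 to 3 partners, 0 to 1 inducers, 0 to 1 decay factors and 1 to 3 targets. The cause of these moves was not tested.

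No pairing by replicate number was seen. The correlation of deviations from the group means exceeded 0.1 in 3 of 18 same-numbered pairs and ranged from -0.44 to 0.25. In the other pairs it ranged from -0.34 to 0.46. With group means of 3 libraries, this cannot show whether libraries were prepared in matched batches. In a fit that took the replicate number as its block, 3518, 6922 and 793 genes passed the thresholds in the 3 comparisons, against 3570, 6966 and 821 without it. Without counts, the depth limits of FOS and FOSB outside NG, where they are at 0.32 to 7.17 TPM, cannot be given.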
